A study of Mus musculus with 12 samples.

Results

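The genes described here are the chains of type IV collagen and their partners in the basement membrane, Col4a1, Col4a2, Col4a3, Col4a4, Col4a5, Lama2, Lama5, Lamb2, Lamc1 and Nid1. They were taken by gene symbol and not by their measured values. The array carried 17 probes for these 10 genes among 45281 probes in all, and 14 of the 17 were detected, which here means that 1 or more of the 12 arrays gave the probe a detection p-value under 0.01. Over the whole array 19780 probes were detected in this sense. All 10 genes had at least 1 detected probe, among 11244 genes with a detected probe in the series. The other 3 probes, 2 for Lama2 and 1 for Nid1, were not detected in any array and are not described further.

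Total RNA came from frozen tissue of hearts (HT) and kidneys (KID), not sorted by cell type, of mice on the C57BL/6 background kept to 12 months of age. Wildtype (WT) mice were set against mice lacking PAI-1, an inhibitor of the plasminogen activators, so that there were 4 groups, WT/HT and KO/HT for the hearts and WT/KID and KO/KID for the kidneys, with 3 arrays in each. The mice were untreated as far as the labels say, the knockout is of the whole animal, and its allele lacks all of the coding sequence with some of the promoter. Levels are log2 of the quantile normalized signal, and a difference of 1 on this scale is a doubling of the signal.

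The basement membrane is a thin sheet of matrix under epithelia and endothelia and around muscle cells. Type IV collagen chains twist into trimers that link into a network, laminins assemble from an alpha, a beta and a gamma chain into a second network, and nidogen bridges them. The α1 and α2 chains make the trimer found in most basement membranes, while the α3, α4 and α5 chains make the trimer of the mature glomerular filter of the kidney, which podocytes secrete and which fails in Alport syndrome. Laminin with the α2 chain surrounds muscle fibres, including those of the heart, and laminin with the α5 and β2 chains lines the glomerulus.

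The collagen chains lie head to head in pairs in the genome. Col4a1 (chr8:11198423-11312889) and Col4a2 (chr8:11312805-11449287) are read in opposite directions from starts 21 bases apart, and Col4a3 (chr1:82586921-82722059) and Col4a4 (chr1:82448419-82587034) from starts 72 bases apart, in GRCm38.p6 with the RefSeq annotation. The Col4a1 and Col4a2 transcripts overlap from these starts, so the stretch shown for them lies inside both. That of Col4a3 and Col4a4 lies between starts that point away from each other. Other annotated transcripts of the genes overlap these short stretches. They are shown because each is shared by a pair whose levels are compared between the organs. The sequence before Lamb2 (chr9:108479847-108490530) and before Lama5 (chr2:180176373-180225904) is shown because the signals of these laminin chains of the glomerulus changed unequally between the organs. Capitals mark GGGCGG, the GC box, and CCCTCCCC, the CTC box, on either strand, and CCAAT was searched too and is in none of the 4 sequences. The sequences are read along the plus strand, except that of Lama5, which is on the minus strand, and they come from the RefSeq promoter table, which held 8 of the 10 genes.
Col4a1 and Col4a2 (chr8:11312805-11312826): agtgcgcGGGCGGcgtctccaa
Col4a3 and Col4a4 (chr1:82586849-82586921): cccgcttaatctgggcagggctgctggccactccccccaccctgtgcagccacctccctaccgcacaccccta
Lamb2 (chr9:108479612-108479846): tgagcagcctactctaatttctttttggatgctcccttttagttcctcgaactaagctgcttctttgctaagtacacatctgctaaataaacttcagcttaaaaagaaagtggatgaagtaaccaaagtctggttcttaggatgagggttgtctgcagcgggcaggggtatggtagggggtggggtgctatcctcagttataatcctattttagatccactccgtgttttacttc
Lama5 (chr2:180225905-180226109): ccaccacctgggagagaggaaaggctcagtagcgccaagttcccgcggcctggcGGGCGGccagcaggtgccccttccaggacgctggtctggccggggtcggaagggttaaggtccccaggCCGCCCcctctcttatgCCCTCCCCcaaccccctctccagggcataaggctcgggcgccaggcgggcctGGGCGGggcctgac

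The 22 bases from the Col4a2 start to the Col4a1 start, inside both transcripts, held 1 GC box. Of all promoter windows, 7.19% held 1 or more in the 22 bases just before the start. That share is of bases before a start, so it is not a like comparison for this stretch. The 73 bases between Col4a3 and Col4a4 held none of the 3 motifs, where a GC box stood in 21.1% of windows of that length. The 205 bases before Lama5 were 71.7% G or C and held 3 GC boxes and 1 CTC box, found in 25.6% and 7.27% of windows of that length, and the stretch overlaps another annotated gene, Gm52542. The 235 bases before Lamb2 were 43.0% G or C and held none of the motifs, where 30.6% of windows held a GC box. These matches describe the letters only.

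The number of detected probes ran from 14281 to 16080 by array. Replicate arrays correlated at 0.995 to 0.996 in WT/HT, 0.995 to 0.996 in WT/KID, 0.993 to 0.996 in KO/KID and 0.986 to 0.992 in KO/HT over the detected probes. The organ labels fitted their defining genes, since the 5 cardiomyocyte genes on the array were detected in every heart and in no kidney, and all 5 proximal tubule genes were detected in every kidney. Of the tubule genes Cubn and Slc5a2 were detected in no heart, while Lrp2, Slc34a1 and Miox passed the detection threshold in some hearts, with group means of 6.67 to 6.89 there against 13.66 to 15.03 in kidneys. Among genes of podocytes, the cells that secrete the α3, α4 and α5 chains, 3 of 5 were detected, and they did not all set the organs apart. Podxl and Synpo were detected in all 6 hearts, Podxl without a call between the organs, and Nphs1 (nephrin) in no heart and 5 of 6 kidneys. Nphs1 passed lower in hearts of WT (limma adjusted p = 0.00256) and KO mice (limma adjusted p = 0.00015). Synpo passed lower in WT hearts only (limma adjusted p = 0.00514). The genotype labels were not checked on the arrays here. Xist, which coats the inactive X chromosome, was above the detection threshold in 5 hearts (all but KO/HT replicate 1) and in no kidney, and the Y-linked Eif2s3y in that remaining heart and in the 6 kidneys. Organ and these sex transcripts therefore cannot be told apart in the WT mice, and the hearts and kidneys that differ in them cannot be of 1 animal. In bulk tissue, fewer cells of a type and less RNA per cell cannot be told apart.

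Between the organs, Col4a3 and Col4a4 were lower in hearts than in kidneys and the other genes higher, apart from Col4a5, whose 2 probes differed. By the brightest probe of each gene 7 of the 10 passed higher in WT hearts, 2 lower and Col4a5 neither, and 8 passed higher and 2 lower in KO hearts. By limma with Benjamini-Hochberg adjustment over all 19780 probes, 9 of the 14 probes passed higher and 4 lower in WT/HT against WT/KID, which is 92.9% of the probes against 67.4% of all detected probes (35.9% higher and 31.4% lower). The groups did not overlap for the same numbers, 9 higher and 4 lower, where 39.2% and 34.4% of all detected probes did not. In KO/HT against KO/KID 10 passed higher and 4 lower, 100% of the probes against 65.1% of all (34.9% higher and 30.2% lower). The groups did not overlap for 9 higher and 4 lower, where 37% and 32.3% of all did not. The median difference over the 14 probes was 0.72 in WT and 0.77 in KO mice, where the medians over all probes were 0.02 and 0.03. In the KO/HT array without Xist against the 3 KO kidneys, which all lack it, all 14 probes passed in the same directions, with the lone heart assumed to vary like the other arrays.

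**Figure D1:**
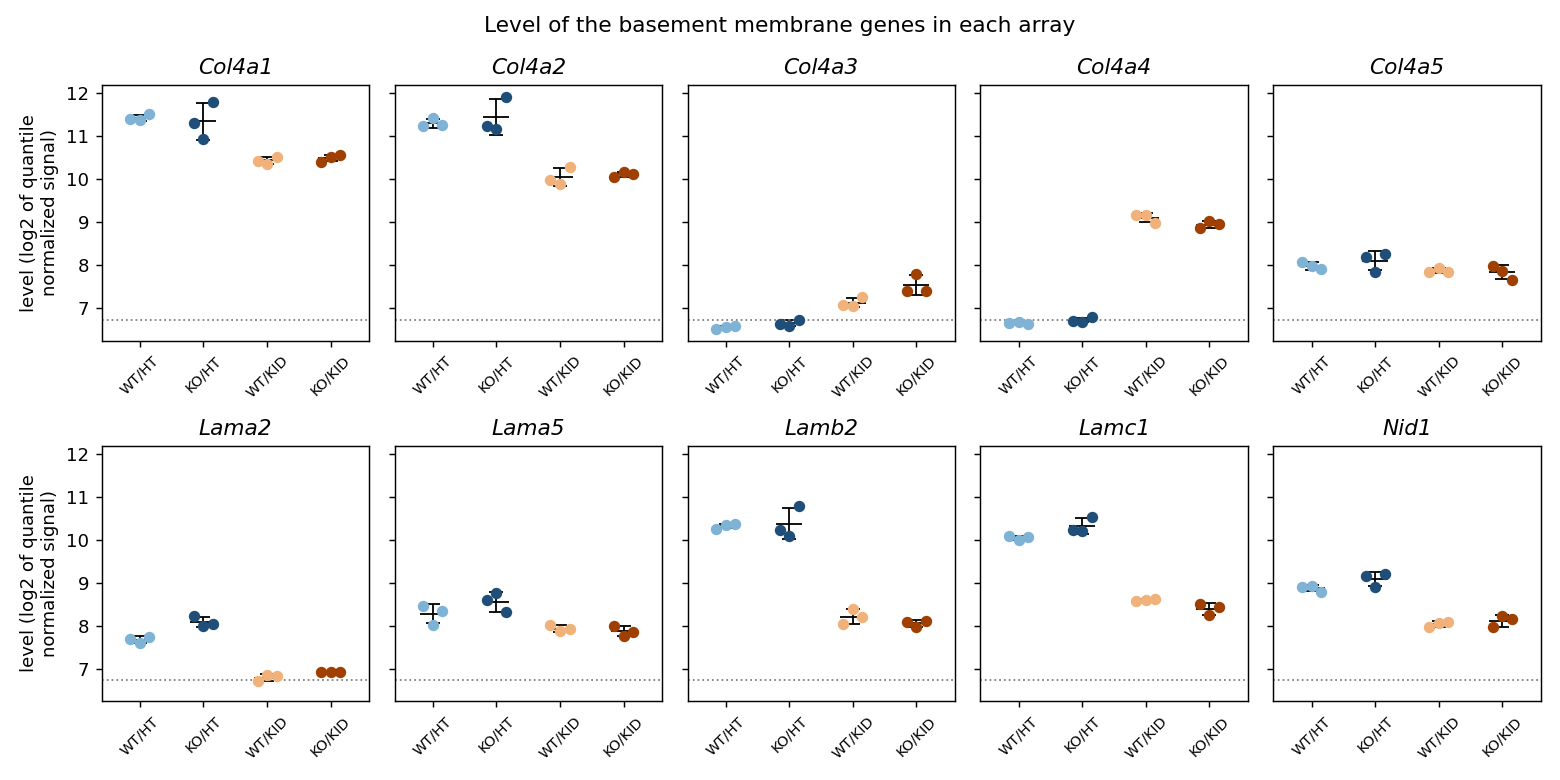
Each panel plots the log2 quantile normalized signal (y axis) of 1 gene in the 3 arrays of each of the 4 groups (points), with the mean and SD as a horizontal mark and bar and, dotted, the highest of the arrays' lowest detected signals, 6.73. Col4a3 and Col4a4 lie near the dotted line in hearts and above it in kidneys, and the other genes are higher in hearts or, for Col4a5, close.

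Col4a1, a chain of the common trimer, was measured at 11.41, 11.37 and 11.50 in the WT hearts and 11.30, 10.93 and 11.79 in the KO hearts. In kidneys it was at 10.43, 10.36 and 10.52 in WT and 10.41, 10.51 and 10.55 in KO mice. Every heart was above every kidney, and the KO hearts were spread more widely (SD 0.43) than the other groups (SD 0.07 to 0.08). The mean was 11.43 ± 0.07 (SD, n = 3) in WT/HT and 10.44 ± 0.08 (SD, n = 3) in WT/KID, a difference of 0.99 (SE 0.16, limma adjusted p = 0.000102) or 1.99-fold. In KO mice the difference was 0.85 (SE 0.16, adjusted p = 0.000377), and with arrays centred on their medians in place of quantile normalization the differences were 0.58 in WT and 0.31 in KO mice (adjusted p = 0.0101 and 0.122).

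Col4a2, the partner of Col4a1 in that trimer, was at 11.22, 11.41 and 11.25 in WT hearts, 11.25, 11.17 and 11.92 in KO hearts, 9.98, 9.89 and 10.28 in WT kidneys and 10.05, 10.16 and 10.11 in KO kidneys. The hearts again lay above the kidneys with no overlap, and KO/HT replicate 3 was the highest heart for both chains. The heart was higher by 1.25 (SE 0.16, adjusted p = 2.29e-05) or 2.37-fold in WT and by 1.34 (adjusted p = 1.26e-05) or 2.53-fold in KO mice, and without quantile normalization by 0.81 and 0.80.

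Col4a3, of the glomerular trimer, was at 6.51, 6.56 and 6.57 in WT hearts and 6.62, 6.58 and 6.72 in KO hearts, and only KO/HT replicate 3 passed the detection threshold. In kidneys it was at 7.07, 7.05 and 7.24 in WT and 7.40, 7.80 and 7.39 in KO mice, all detected. Kidneys were above hearts in every array. Since no WT heart was detected, the WT kidneys are given as at least 1.33-fold higher, the mean of the kidneys against the lowest detected signal of the heart arrays. The measured WT difference was -0.58 (limma adjusted p = 0.0001925), and the bound itself was not tested. With 1 of 3 KO hearts detected, the measured KO difference was -0.89 on the log2 scale (SE 0.10, adjusted p = 4.34e-06), and the size depended on the treatment of background, at -2.05 with neqc and -0.52 with the authors' values.

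Col4a4, the neighbour of Col4a3 and its partner in the trimer, had 3 detected probes. The brightest, probe 1, was at 6.66, 6.67 and 6.63 in WT hearts, 6.69, 6.68 and 6.78 in KO hearts, 9.16, 9.15 and 8.98 in WT kidneys and 8.85, 9.02 and 8.96 in KO kidneys. It was detected in 2 KO hearts, in no WT heart and in all kidneys, and heart and kidney arrays were far apart. The WT kidneys were at least 5.23-fold higher than the WT hearts, with a measured difference of -2.45 (limma adjusted p = 2.90e-12). In KO mice the hearts fell by 2.22 on the log2 scale against the kidneys (SE 0.06, adjusted p = 7.61e-12). Probes 2 and 3 passed the detection threshold in the 6 kidneys but in none of the hearts, and the kidneys were at least 2.27-fold and 2.33-fold higher in WT and at least 2.47-fold and 2.23-fold higher in KO mice. The 3 probes thus shared their direction and differed in size. With neqc the KO difference of probe 1 was -3.71.

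Col4a5, the X-linked chain (chrX:141475370-141689236) that joins α3 and α4, was detected in all 12 arrays by 2 probes that did not behave alike. Probe 1 was at 8.07, 7.97 and 7.90 in WT hearts, 8.19, 7.84 and 8.27 in KO hearts, 7.83, 7.93 and 7.84 in WT kidneys and 7.98, 7.87 and 7.65 in KO kidneys, so that hearts and kidneys overlapped in both genotypes. The heart was at 0.11 above the kidney in WT (SE 0.11, 95% interval -0.12 to 0.35, adjusted p = 0.366) and higher by 0.26 in KO mice (SE 0.11, adjusted p = 0.0478). That call in KO mice was lost without KO/HT replicate 1 (0.22), KO/HT replicate 3 (0.18), KO/KID replicate 2 (0.28) or KO/KID replicate 3 (0.17), and without quantile normalization the differences were -0.20 in both KO (adjusted p = 0.0929) and WT mice (adjusted p = 0.0998). Probe 2 was at 7.43, 7.53 and 7.33 in WT hearts, 7.57, 7.37 and 7.55 in KO hearts, 6.79, 6.81 and 6.87 in WT kidneys and 6.97, 7.14 and 6.86 in KO kidneys. Its hearts were above its kidneys throughout, by 0.61 in WT (SE 0.08, adjusted p = 2.23e-05) and 0.51 in KO mice (adjusted p = 0.000109). These sizes were 1.31 and 1.01 with neqc, 0.36 and 0.31 with the authors' values and 0.42 and 0.24 without quantile normalization. The chain that completes the glomerular trimer therefore did not share the direction of Col4a3 and Col4a4 on probe 2 under any scaling tried, and on probe 1 only with quantile normalization.

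**Figure D2:**
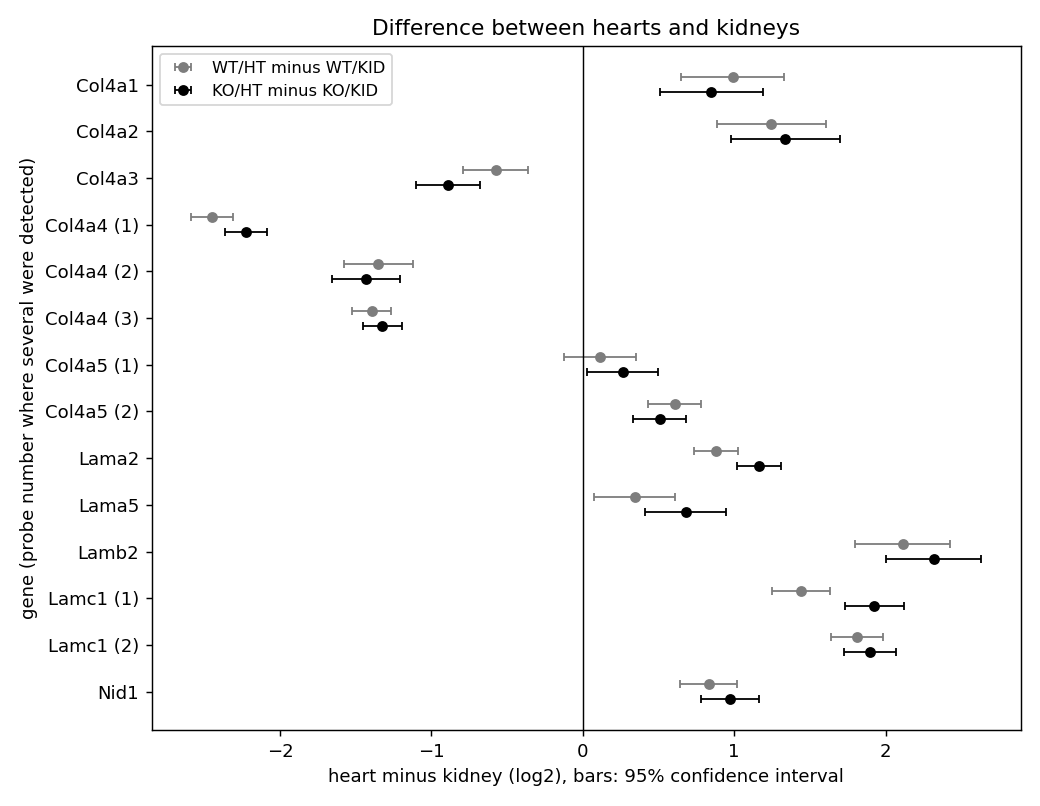
Differences between hearts and kidneys (x axis, log2, heart minus kidney) for the 14 detected probes in WT (grey) and KO (black) mice, with 95% confidence intervals from limma as bars. The 4 probes of Col4a3 and Col4a4 lie left of 0 and the others right of it, from 0.11 for Col4a5 probe 1 to 2.32 for Lamb2.

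Among the laminin alpha chains, Lama2 (chr10:26981285-27617191), the chain around muscle fibres, was at 7.69, 7.59 and 7.75 in WT hearts and 8.22, 8.0 and 8.04 in KO hearts. In kidneys it was at 6.71, 6.85 and 6.83 in WT and 6.92, 6.93 and 6.93 in KO mice. Every heart was above every kidney, by 0.88 in WT (SE 0.07, adjusted p = 1.18e-07) or 1.84-fold and by 1.16 in KO mice (adjusted p = 8.31e-09) or 2.24-fold. The kidneys lay close to the background, and with the neqc background correction the differences were 1.80 and 2.04, and with the authors' values 0.53 and 0.75.

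Lama5, the alpha chain of the adult glomerulus and of many epithelia, was at 8.46, 8.03 and 8.35 in WT hearts, 8.60, 8.76 and 8.31 in KO hearts, 8.02, 7.87 and 7.92 in WT kidneys and 8.0, 7.77 and 7.85 in KO kidneys. Hearts were above kidneys in every array, by a narrow margin in WT mice, where the difference was 0.34 (SE 0.12, adjusted p = 0.0269). The WT call was lost without WT/HT replicate 1 (0.26, adjusted p = 0.113), WT/HT replicate 3 (0.31), WT/KID replicate 2 (0.31) or WT/KID replicate 3 (0.33). In KO mice the difference was 0.68 (SE 0.12, adjusted p = 0.000363). Without quantile normalization it was 0.18 in KO (adjusted p = 0.297) and 5.80e-05 in WT mice.

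Lamb2, the beta chain of the glomerulus, of vessels and of the neuromuscular junction, had the largest heart excess of the 14 probes. It was at 10.26, 10.34 and 10.36 in WT hearts, 10.23, 10.10 and 10.79 in KO hearts, 8.04, 8.39 and 8.19 in WT kidneys and 8.08, 7.97 and 8.11 in KO kidneys. The heart was higher by 2.11 (SE 0.14, adjusted p = 4.42e-08) or 4.33-fold in WT and by 2.32 (adjusted p = 1.89e-08) or 4.98-fold in KO mice, over a gap between the organs wider than the spread of any group.

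Lamc1 (chr1:153218922-153332786), the gamma chain that most laminins share, was detected by 2 probes. Probe 1 was at 10.08, 9.99 and 10.06 in WT hearts, 10.23, 10.20 and 10.54 in KO hearts, 8.58, 8.61 and 8.63 in WT kidneys and 8.51, 8.24 and 8.44 in KO kidneys. The heart was higher by 1.44 in WT (SE 0.09, adjusted p = 1.69e-08) and 1.93 in KO mice (adjusted p = 1.00e-09). Probe 2 was at 9.43, 9.40 and 9.30 in WT hearts, 9.55, 9.46 and 9.77 in KO hearts, 7.49, 7.52 and 7.67 in WT kidneys and 7.71, 7.66 and 7.71 in KO kidneys, with heart differences of 1.81 and 1.90. Both probes had all hearts above all kidneys by more than 1 log2 unit.

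Nid1 (chr13:13437602-13512275), nidogen, which links laminin to type IV collagen, was at 8.90, 8.93 and 8.80 in WT hearts, 9.15, 8.91 and 9.21 in KO hearts, 7.97, 8.06 and 8.10 in WT kidneys and 7.96, 8.22 and 8.16 in KO kidneys. The hearts were above the kidneys, by 0.83 (SE 0.09, adjusted p = 2.64e-06) or 1.78-fold in WT and by 0.97 (adjusted p = 6.37e-07) or 1.96-fold in KO mice. Without quantile normalization the differences were 0.44 and 0.42, and both passed.

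Markers of other cells differed between the organs as well, but not every gene of a list did so or went the same way. Of all detected probes 35.9% passed higher and 31.4% lower in WT hearts, and 34.9% and 30.2% in KO hearts. The summed level of the 4 detected endothelial genes of 5, cells that lay down the common trimer, was 11.55 to 11.61 in WT/HT, 11.40 to 11.61 in KO/HT, 10.97 to 11.16 in WT/KID and 11.17 to 11.31 in KO/KID, and 3 of the 4 passed higher in hearts in each genotype, with the other lower in KO hearts. The 6 fibroblast genes summed to 12.90 to 12.96 in WT/HT and 12.99 to 13.32 in KO/HT, against 10.82 to 11.04 in WT/KID and 11.03 to 11.21 in KO/KID, and 3 of the 6 passed higher and 1 lower in WT hearts, 4 higher and 1 lower in KO hearts. The 5 genes of mural cells, the smooth muscle and pericytes of vessels, summed to 12.78 to 13.11 in WT/HT, 11.98 to 12.50 in KO/HT, 11.10 to 11.90 in WT/KID and 11.31 to 11.43 in KO/KID, and 4 passed higher in hearts of each genotype. The 3 podocyte genes summed to 10.09 to 10.38 in WT/HT, 10.14 to 10.83 in KO/HT, 10.75 to 10.91 in WT/KID and 10.60 to 10.74 in KO/KID, and 2 passed lower in WT and 1 in KO hearts. The part of these cell types in the levels of the chains was not tested.

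The signals of Lama5 and Lamb2 did not keep 1 ratio between the organs, nor did those of Col4a1 and Col4a2, by less and with overlap. The difference of 2 probes within an array says nothing of which gene has more RNA. A change of it between organs says that the 2 signals changed unequally, and how each probe responds to RNA was not measured. The 3 pairs were compared by exact permutation of the organ labels within genotype (two-sided, 6 hearts and 6 kidneys, smallest possible p 0.005, adjusted over the 3 pairs). Lama5 minus Lamb2 was -1.93 ± 0.42 (SD, n = 6) in hearts and -0.23 ± 0.18 (SD, n = 6) in kidneys, a difference of -1.70 with no overlap (exact p = 0.005, adjusted p = 0.0075). Col4a3 minus Col4a4 was -1.69 ± 0.35 (SD, n = 6) in kidneys. In hearts Col4a3 was detected in 1 array and Col4a4 in 2, so their difference there, -0.09 ± 0.04 (SD, n = 6), is between signals near background, and no change of the ratio between the organs can be read from it. Col4a1 minus Col4a2 was 0.01 ± 0.19 (SD, n = 6) in hearts and 0.38 ± 0.08 (SD, n = 6) in kidneys, a difference of -0.37 (exact p = 0.01, adjusted p = 0.01) with 1 overlap, WT/HT replicate 3 at 0.26 and WT/KID replicate 3 at 0.24. This difference did not pass with same-numbered hearts and kidneys as blocks (exact adjusted p = 0.0625).

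**Figure D3:**
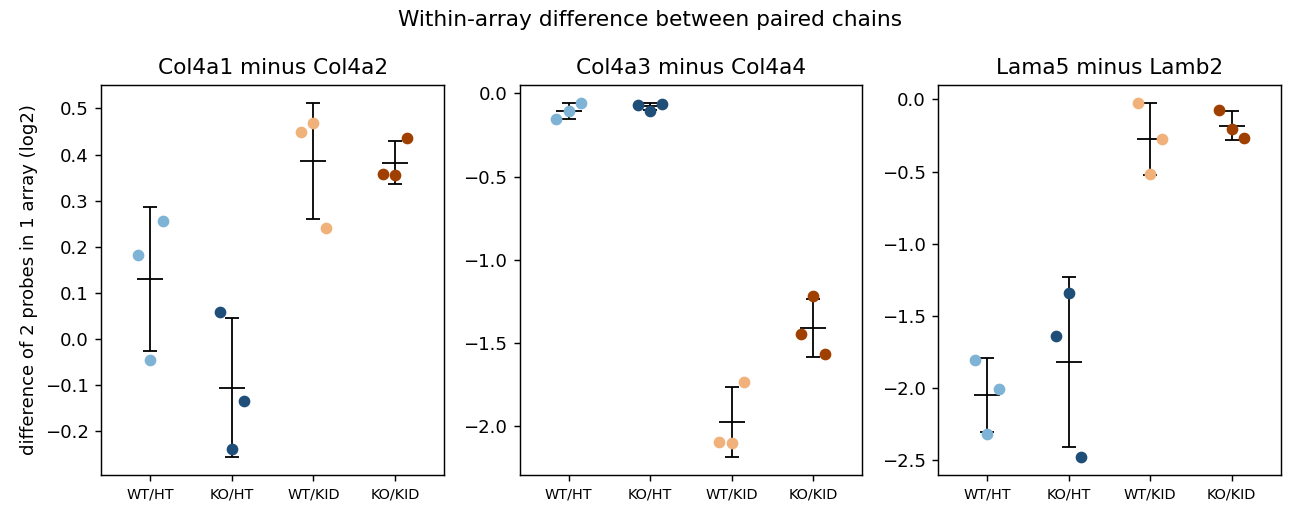
The difference between 2 probes within an array (y axis, log2) for 3 chain pairs in the 3 arrays of each group (points), with the mean and SD as a horizontal mark and bar. Hearts and kidneys are apart for Lama5 minus Lamb2 and for Col4a3 minus Col4a4, the latter with hearts near background, and overlap at 1 heart and 1 kidney for Col4a1 minus Col4a2.

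Within kidneys the comparison of Col4a3 minus Col4a4 by genotype depended on the Col4a4 probe. With probe 1 it was -2.09, -2.10 and -1.74 in WT/KID and -1.45, -1.22 and -1.56 in KO/KID, without overlap. Col4a4 probe 2 was at 7.97, 7.80 and 7.91 in WT and 8.22, 7.71 and 8.06 in KO kidneys. With probe 2 the genotypes overlapped. Col4a4 probe 3 was at 8.04, 7.90 and 7.86 in WT and 7.85, 7.83 and 7.86 in KO kidneys. With probe 3 they did not overlap. The difference between genotypes was not tested.

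Between the genotypes none of the 14 probes passed by limma, in hearts or in kidneys. Over the array 0.0657% of all detected probes passed in KO/HT against WT/HT (0.0202% higher and 0.0455% lower) and 0.546% in KO/KID against WT/KID (0.243% higher and 0.303% lower). At an unadjusted p under 0.05 there were 5 of the 14 probes in hearts, where 8.03% of all detected probes were, and 3 in kidneys, where 10.1% were, and limma with trend and robust estimation called 1 in hearts (Lama2) and 0 in kidneys. In hearts 12 of the 14 differences were above 0, with a median of 0.11 where the median of all probes was 0.00. Without KO/HT replicate 3 only 9 were above 0 and the median was 0.04, and with KO/HT replicate 2 alone against the WT hearts 7 were above 0. In kidneys 8 were above 0 with a median of 0.06, but without quantile normalization all 14 were above 0 and the median of all probes was itself 0.12.

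Lama2 showed the clearest difference between genotypes in hearts. The KO hearts (8.22, 8.0 and 8.04) were all above the WT hearts (7.69, 7.59 and 7.75), with means of 8.09 ± 0.11 (SD, n = 3) and 7.68 ± 0.08 (SD, n = 3). The difference was 0.41 (SE 0.07, 95% interval 0.26 to 0.55) or 1.33-fold, with a limma p of 5.01e-05 that did not pass after adjustment over all probes (adjusted p = 0.0660). It passed without KO/HT replicate 2 (0.45, adjusted p = 0.0251), with arrays centred on their medians (0.44, adjusted p = 0.0476) and with trend and robust estimation (adjusted p = 0.0446). The difference did not pass with neqc (0.60, limma adjusted p = 0.150) or with the authors' values (0.29, limma adjusted p = 0.0638). Leaving out single arrays gave a limma adjusted p of up to 0.196. Among the 5 hearts with Xist it was 0.32 (adjusted p = 0.573). In kidneys the KO arrays were also all above the WT arrays, with a difference of 0.13 (SE 0.07, adjusted p = 0.564), and the difference between the organs in this effect was 0.28 (adjusted p = 0.425).

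Of the 14 probes, 5 had all KO hearts above all WT hearts, where 5.37% of all probes did, and none had all KO hearts below, where 5.16% did. They were those of Lama2, both of Lamc1, Col4a3 and Col4a4 probe 1, and the last 2 genes were at or near background in hearts. Lamc1 was at 0.28 (SE 0.09, adjusted p = 0.423) on probe 1 and 0.22 (SE 0.08, adjusted p = 0.490) on probe 2. Lama5 was at 0.28 (SE 0.12, adjusted p = 0.603) and Nid1 at 0.21 (SE 0.09, adjusted p = 0.555), each with overlapping groups. The chains of the common trimer were at -0.09 (SE 0.16, 95% interval -0.42 to 0.25) for Col4a1 and 0.15 (SE 0.16, 95% interval -0.21 to 0.51) for Col4a2.

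The KO hearts had the largest SD of the 4 groups for 9 of the 14 probes, among them Col4a1 (0.43), Col4a2 (0.41) and Lamb2 (0.36), but not for Col4a3 or Col4a4. Over all detected probes the KO/HT arrays were also the least alike, with correlations of 0.986 to 0.992 against 0.993 or more in the other groups. The share of all probes with the largest SD in KO/HT is not given here. KO/HT replicate 3 was the highest of the 6 hearts for 8 of the 10 genes, all but Lama2 and Lama5, where it was the highest heart for 22.5% of all probes. KO/HT replicate 2 was the lowest heart for Col4a1, Col4a2, Col4a5 and Lamb2. KO/HT replicate 3 also had the highest summed fibroblast level, 13.32, and the KO hearts lay above the WT hearts in that sum and below them in the mural sum. Each sum adds linear signals, so its brightest gene weighs most. That gene was Dcn for fibroblasts, at 0.24 (limma adjusted p = 0.681). For mural cells it was Acta2, smooth muscle actin, at -0.80 (limma adjusted p = 0.298). Of the other mural genes Myh11 was at -0.38 and Rgs5 at -0.11, but Pdgfrb at 0.16 and Cspg4 at 0.12. None of the 5 mural or 6 fibroblast genes passed. The part of fibroblasts and mural cells in the levels of the chains was not tested.

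**Figure D4:**
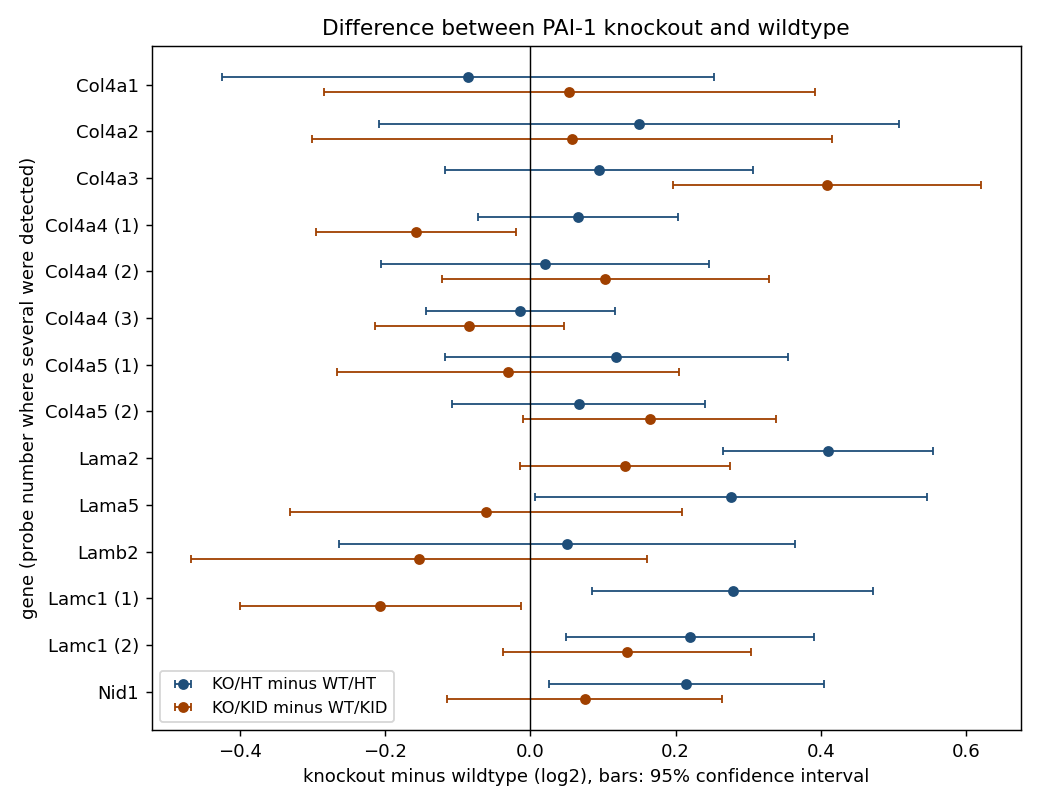
Differences between genotypes (x axis, log2, KO minus WT) for the 14 detected probes in hearts (blue) and kidneys (brown), with unadjusted 95% confidence intervals from limma as bars. No probe passed after adjustment, and the largest differences are those of Lama2 in hearts and Col4a3 in kidneys, both at 0.41.

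In kidneys Col4a3 had the largest difference. The KO kidneys (7.40, 7.80 and 7.39) were all above the WT kidneys (7.07, 7.05 and 7.24), by 0.41 (SE 0.10, 95% interval 0.20 to 0.62, adjusted p = 0.104) or 1.33-fold, and without quantile normalization by 0.63 (adjusted p = 0.00662). Col4a4 did not share this direction on probe 1, at -0.16 (SE 0.06, adjusted p = 0.392), and its probes 2 and 3 were at 0.10 and -0.08. Of the 14 probes, 2 had all KO kidneys above all WT kidneys (Col4a3 and Lama2), where 8.95% of all probes did, and 2 had all below (Col4a4 probe 3 and Lamc1 probe 1), where 8.27% did. The other probes overlapped between the genotypes.

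The test of whether the genotype difference itself differed between the organs passed for 0 of the 14 probes by limma, where 0.101% of all detected probes passed (0.0556% higher and 0.0455% lower), and 4 of the 14 had an unadjusted p under 0.05, where 8.88% of all did. The largest was Lamc1 probe 1 at 0.49 (SE 0.13, adjusted p = 0.268), with KO arrays all above WT arrays in hearts and all below in kidneys. Probe 2 of the same gene was at 0.09 (SE 0.11, adjusted p = 0.861).

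The other genes of the basement membrane were divided between the organs, as all detected probes were. Of 26 further components, chosen as a list of structural proteins of this matrix, 23 had a probe and 17 were detected. In WT mice 6 passed higher in hearts and 7 lower, with 4 that did not pass, and in KO mice 6 passed higher, 6 lower and 5 did not pass. Of all detected probes 35.9% passed higher and 31.4% lower in WT hearts, and 34.9% and 30.2% in KO hearts. In both comparisons the 6 with the smallest adjusted p were Tinag, Col18a1, Lamc3, Agrn, Hspg2 and Lama1. Tinag, an antigen of the tubular basement membrane, was at 10.80 ± 0.13 (SD, n = 3) in WT kidneys, was detected in no heart and was at least 17-fold higher in WT and 19.8-fold higher in KO kidneys. Its measured differences had limma adjusted p = 6.81e-12 and 3.91e-12. A pair of heparan sulfate proteoglycans went opposite ways, Hspg2 (perlecan) higher in hearts by 2.05 (SE 0.14, adjusted p = 4.79e-08) and Agrn (agrin), which is abundant in the glomerulus, lower by 1.24 on the log2 scale (SE 0.08, adjusted p = 3.41e-08). Col18a1, the source of endostatin, fell by 2.80 on the log2 scale in hearts (SE 0.11, adjusted p = 2.61e-10). The laminin chains Lamc3 and Lama1 were detected in no heart and were at least 1.95-fold and 1.57-fold higher in WT kidneys. By contrast Lamb3, another laminin chain, was higher in WT hearts by 1.12 (adjusted p = 3.54e-06), and Nid2, the second nidogen, was higher in WT hearts by 0.82 (adjusted p = 2.62e-07), as Nid1 was. By the brightest probe of each gene, the median difference of the list was -0.04 in WT and 0.10 in KO mice, beside 0.86 and 0.91 over the 10 genes.

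**Figure D5:**
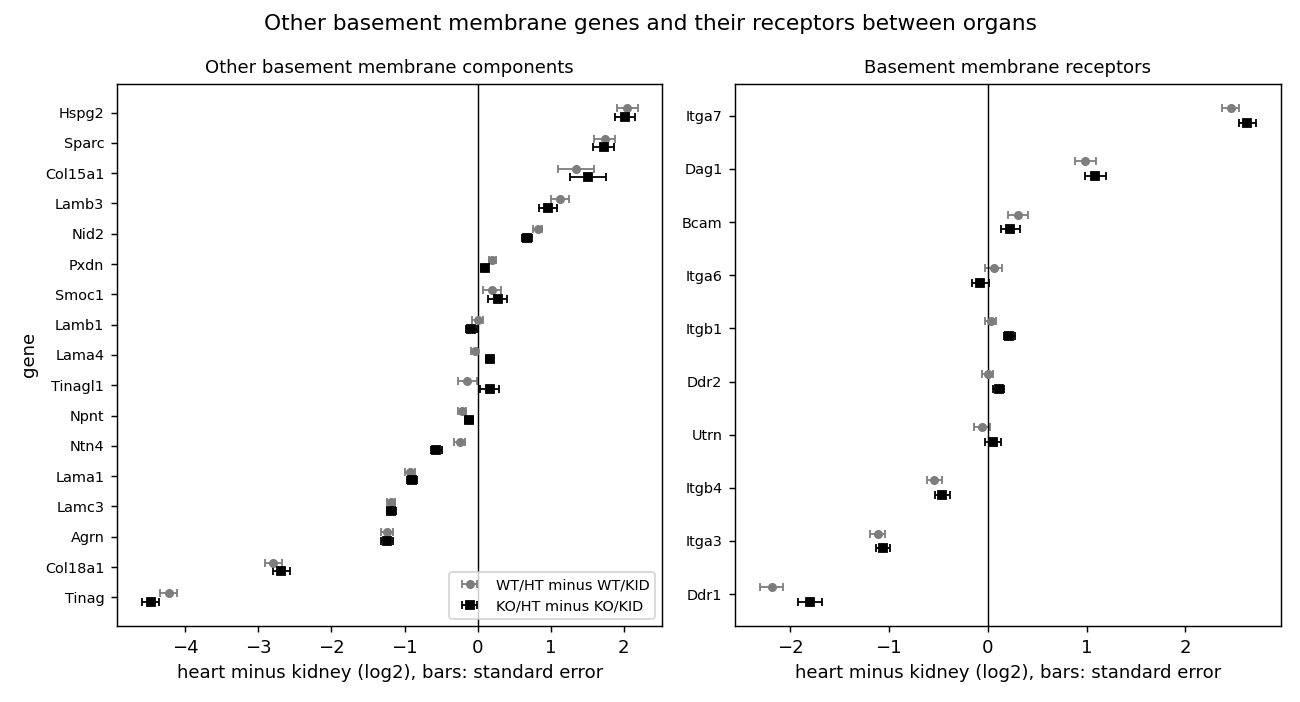
Differences between hearts and kidneys (x axis, log2, heart minus kidney) for 17 other components of the basement membrane (left) and 10 receptors (right), in WT (grey) and KO (black) mice, with standard errors as bars. Tinag and Col18a1 lie farthest to the kidney side and Hspg2 and Itga7 farthest to the heart side.

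Of 11 receptors for these proteins 10 were detected, all but Dmd. In each genotype 3 passed higher in hearts, 3 lower and 4 did not pass, near the shares of all detected probes (35.9% higher and 31.4% lower in WT mice). Itga7, the integrin chain of muscle that binds laminin, was higher in hearts by 2.46 (SE 0.08, adjusted p = 5.16e-11) in WT and 2.63 in KO mice, and Dag1, dystroglycan, by 0.99 (SE 0.11, adjusted p = 4.66e-06) and 1.09. On the log2 scale in WT mice, Itga3, the integrin chain of podocytes, fell by 1.11 in hearts (SE 0.07, adjusted p = 3.37e-08). Ddr1, a collagen receptor of epithelia, fell by 2.19 (SE 0.12, adjusted p = 4.57e-09) and Itgb4 fell by 0.54 (adjusted p = 3.29e-05). The sixth was Bcam, a receptor for the laminin α5 chain, higher by 0.31 in WT hearts (adjusted p = 0.0163), and in KO mice Itgb1, higher by 0.22 (adjusted p = 0.00343). Between genotypes the smallest adjusted p among the 17 components were 0.451 for Lama4 in hearts (0.14) and 0.145 for Ntn4, netrin 4, in kidneys (0.28). Among the 10 receptors they were 0.571 for Ddr2 in hearts (0.13) and 0.652 for Ddr1 in kidneys (-0.20).

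Patterns over the 12 arrays were compared by the root mean square of the difference between 2 genes after each gene's own mean was taken off, over 11234 genes that are not among the 10. Nearest to Col4a1 were Cox4i2 at 0.129, P4ha2 at 0.131, Phospho1 at 0.131, Ddo at 0.138 and Plp2 at 0.139 log2 units. P4ha2 is a subunit of the prolyl hydroxylase of collagen. Nid1 was at 0.176 from Col4a1 with 66 genes nearer, and Col4a2 at 0.229 with 430 genes nearer. Nearest to Col4a4 were Tprn at 0.0250, Acot4 at 0.0567, C8g at 0.0774, Lrpap1 at 0.0796 and Scnn1g, a subunit of the epithelial sodium channel, at 0.0804. Col4a3, its neighbour in the genome, was at 0.834 with 1594 genes nearer. The 12 arrays fall into hearts and kidneys, so this measure mostly ranks the size of the organ difference.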

How the data were processed

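RNA of 6 hearts and 6 kidneys was measured on Illumina mouse bead arrays. The authors deposited for each array and each of 45281 probes a summary signal, a linear intensity that is not normalized between arrays, and a detection p-value (how it was calculated is not stated in the sources). A second deposited table holds the authors' normalized intensity values, made with lumi, of unstated version, and quantile normalization. The 12 arrays were brought to the same quantiles, log2 was taken without subtracting background, and a probe was tested if 1 or more arrays gave it a detection p-value under 0.01. Bead counts were not used, so the number of arrays limits the precision.

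R 4.3.3 and limma 3.58.1 were used, with 1 mean per group (8 residual and 3.91 prior degrees of freedom), two-sided moderated tests and Benjamini-Hochberg adjustment over 19780 probes, called at an adjusted p under 0.05. A group with no detected array gives a lower bound, and the bounds were not tested. Gene names were taken from the annotation of the platform (34903 probes). Of the detected probes 17073 had 1 symbol, 9 several and 2698 none. A gene with several detected probes is shown by that with the highest mean, and its other probes are named by number. The test was tried on simulated data.

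The genes, the lists and the tests were chosen with earlier results of these data known. All 10 genes are described. Of the further lists, up to 6 genes with the smallest adjusted p in a comparison are named, and the 5 genes nearest to Col4a1 and to Col4a4. Lamb3, Nid2, Acta2, Dcn and the other mural genes were named after their values were seen. Marker lists were cardiomyocyte, proximal tubule, podocyte, endothelial, fibroblast, mural and sex transcripts. The protocol names 3 mice per genotype, which the sex transcripts go against in both WT and KO mice. No label ties an array to an animal, so the p-values measure only the spread between arrays. Alternatives were neqc (offset 16), centring without quantile normalization, the authors' values, other detection filters, only the groups compared, blocks, trend and robust estimation, leaving out arrays and sets by Xist.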

Additional observations from a re-analysis of the deposited data

Results flagged for a closer look

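For Lamc1 probe 1 every KO heart lay above every WT heart and every KO kidney below every WT kidney. The difference between the organs in the genotype effect was 0.49 (SE 0.13), and it did not pass by limma after adjustment over all probes (adjusted p = 0.268). Over the alternatives it ranged from 0.34 to 0.56. Probe 2 of Lamc1 was at 0.09 in the same test, with KO arrays above WT arrays in hearts and overlapping in kidneys.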

How the results depend on the processing

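Over 27 alternative settings, 1258 values for single probes were recomputed, and 1230 kept their side of the threshold, 19 lost a call, 8 gained one and 1 called value turned its sign. A further 38 values turned sign without a call under either setting. The organ calls of all genes other than Col4a1 in KO mice, Col4a5 (probe 1) and Lama5 were kept under every setting. Between organs, 12 to 13 probes of the 14 passed in WT and 13 to 14 in KO mice when each array was left out in turn. Between genotypes in hearts 0 to 1 passed. The KO heart difference of Col4a5 probe 1 was -0.20 without quantile normalization. That setting moved the median of all probes by 0.12 in the kidney comparison, by -0.10 between WT organs and by -0.17 between KO organs, and the share of higher calls from 44.4% to 96.5%, from 53.3% to 37.5% and from 53.6% to 29.7% (for the interaction from 55% to 27.8%). With it 1 of the 14 probes was called in hearts and 5 in kidneys. Trend and robust estimation also called 1 in hearts.

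Of all probes, 13 were called between genotypes in hearts. The count was 21 with neqc, 5 with centring, 3 with only the groups compared, 25 with trend and robust estimation, 4 with only arrays with Xist, 27 without KO/HT replicates 1 and 3 (chosen after seeing the data) and 4 to 116 leaving out each array, namely 7 and 4 without the second and the third WT heart, and 33 and 116 without the first and the second KO heart. In kidneys 108 were called, 2544 with centring (2455 higher and 89 lower), 32 with only the groups compared and 59 to 132 leaving out each array. For the interaction 20 were called, 11 with the authors' values, 11 without a detection filter and 7 to 25 leaving out each array. The cause was not tested.

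Replicate numbers in the labels showed no clear pairing of the samples. Deviations of same-numbered arrays from their group means correlated from -0.20 to 0.21, and 4 of 18 were over 0.1. For arrays of different numbers the range was -0.24 to 0.24, and 5 of 36 were over 0.1. With the number as a block 8 probes were called in hearts and no member between genotypes, Col4a5 probe 1 in KO mice was at 0.26 (adjusted p = 0.0550), and Col4a1 minus Col4a2 stayed at -0.37 (exact adjusted p = 0.0625). A random block for the mouse changed no call of the 14 probes (consensus correlation 0.0122). Bounds against undetected groups and the levels of Col4a3 and Col4a4 in hearts are limited by the signal over background.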
